A study of Sus scrofa with 36 samples.

Results

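The 10 enzymes described here remove reactive oxygen species or serve that removal, and they were followed in the thyroid gland of 36 pigs: the glutathione peroxidases GPX1, GPX3 and GPX4, the superoxide dismutases SOD1 and SOD2, catalase (CAT), the peroxiredoxins PRDX1 and PRDX5, thioredoxin (TXN) and heme oxygenase 1 (HMOX1). A probe was taken as belonging to an enzyme where the array's annotation gave its symbol as the gene name or in round brackets in the description. This gave 55 probes with 51 distinct sequences, of which 54 were tested. All 10 genes were therefore measured, of 9986 named genes with a tested probe.

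The thyroid makes hydrogen peroxide on purpose. The oxidases at the apical membrane of the follicular cell supply it to thyroid peroxidase, which uses it to iodinate thyroglobulin, so the gland is known for a rich set of enzymes that clear what is not used. Superoxide dismutases turn superoxide into hydrogen peroxide, catalase and the glutathione peroxidases turn hydrogen peroxide into water, and the peroxiredoxins do so with electrons passed on by thioredoxin. Heme oxygenase 1 degrades heme and is a well-known stress-inducible enzyme.

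The pigs were castrated males of 3 breeds, which were Creole (CR), Large White (LW) and F1, the cross of these breeds. In each breed 6 pigs were kept at 24 °C and 6 are labelled 30 °C, which gave 6 groups. The protocol text gives the hot temperature as 32 °C and its duration as 5 days, and the groups are named here by the label. Pigs at 24 °C were slaughtered before the hot period and the others after it, so temperature, age and day of slaughter cannot be told apart. Breed likewise cannot be separated from the few families that stand for it. Littermates entered the study together but litters are not in the labels, so every pig was treated as independent, and ages are not in the labels either.

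Total RNA of each gland was labelled with Cy3 and hybridised to 1 porcine array of 60-base probes. Between 72.8% and 80.3% of the probes were well above background per array, and no spot was saturated. The 36 arrays lay on 5 slides. A breed scale over 500 probes, used as a description, had its CR end at -1 and its LW end at 1. On it CR pigs lay between -1.04 and -0.46 (median -0.79), F1 pigs between -0.36 and 0.37 (median 0.08) and LW pigs between 0.52 and 1.15 (median 0.84). The tissue carried its defining markers: thyroglobulin (TG) lay between 18.15 and 19.09 on the log2 scale and the iodide transporter SLC5A5 between 15.28 and 17.82, while parathyroid hormone (PTH) was well above background on 16 of 36 arrays. Of the 11 follicular cell markers 7 were tested, all 7 well above background in every pig, and 0 were called in any of the breed or temperature comparisons. SLC26A4 and DIO1 were not well above background on any array.

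Each gene is described by its brightest tested probe, and its other probes are set beside it. The probes that carry the results are shown first, because several of them share sequence and are no separate measurement. Whole 60-base sequences follow, 5′ to 3′ as on the array, for the probe of PRDX5 that is printed under 2 names, for the brightest probe of PRDX1 and for the probe of GPX4 that is printed under 2 names.
PRDX5 A_72_P146311: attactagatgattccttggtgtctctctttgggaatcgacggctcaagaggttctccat
PRDX1 A_72_P412538: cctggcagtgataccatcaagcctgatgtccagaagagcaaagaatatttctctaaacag
GPX4 A_72_P232212: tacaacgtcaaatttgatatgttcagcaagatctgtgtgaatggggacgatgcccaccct

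For TXN the array held a probe pair on opposite strands. The capitals mark the 59 bases of each that are the reverse complement of the other.
TXN A_72_P177678: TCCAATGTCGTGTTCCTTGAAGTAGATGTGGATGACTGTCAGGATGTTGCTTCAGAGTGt
TXN O7867: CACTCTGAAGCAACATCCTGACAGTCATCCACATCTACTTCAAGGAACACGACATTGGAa
Of the brightest probes of PRDX5 and GPX4, and of 3 SOD2 probes that did not behave alike, the first 30 bases are given.
PRDX5 A_72_P672854: cagtcggaaccttggccagatttctgcaat
GPX4 A_72_P388853: atagagaaggacctgccgtgctacctctag
SOD2 A_72_P341278: ggatatgcatggtacatgctaaaaatccta
SOD2 A_72_P648498: gaaggattttttgactgaatcggcagtgcc
SOD2 A_72_P444413: gaaggagatggtagtacctctgaatttttc
Identical sequences under 2 names were also found for TXN (A_72_P121041 and A_72_P546866) and SOD2 (A_72_P341278 and A_72_P503136). The only untested probe, SOD2 O14696, shared 22 bases with the opposite strand of A_72_P444413 and was not well above background on any array. Within a gene, the group-centred values of the brightest probe and its other probes correlated with a median r of 0.89 for GPX4, 0.95 for PRDX5, 0.84 for TXN, 0.86 for HMOX1 and 0.68 for SOD1 over 36 pigs, as a description. For GPX3 the median was 0.93, with the lowest value, 0.13, at the probe O9216.

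The first comparison asked what the hot period did to these enzymes. None of the 10 genes and none of the 54 probes was called between 30 and 24 °C at an adjusted p under 0.05, against 1.21% of all named genes and 1.18% of all probes. Without adjustment 2 of 10 genes and 4503 of 46222 probes had a p under 0.05. The estimates were small: they ran from -0.25 to 0.08 on the log2 scale with standard errors between 0.04 and 0.15, and 8 of 10 were below 0. Their median was -0.05, beside 0.01 over all named genes, of which 45.1% were below 0.

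**Figure D1:**
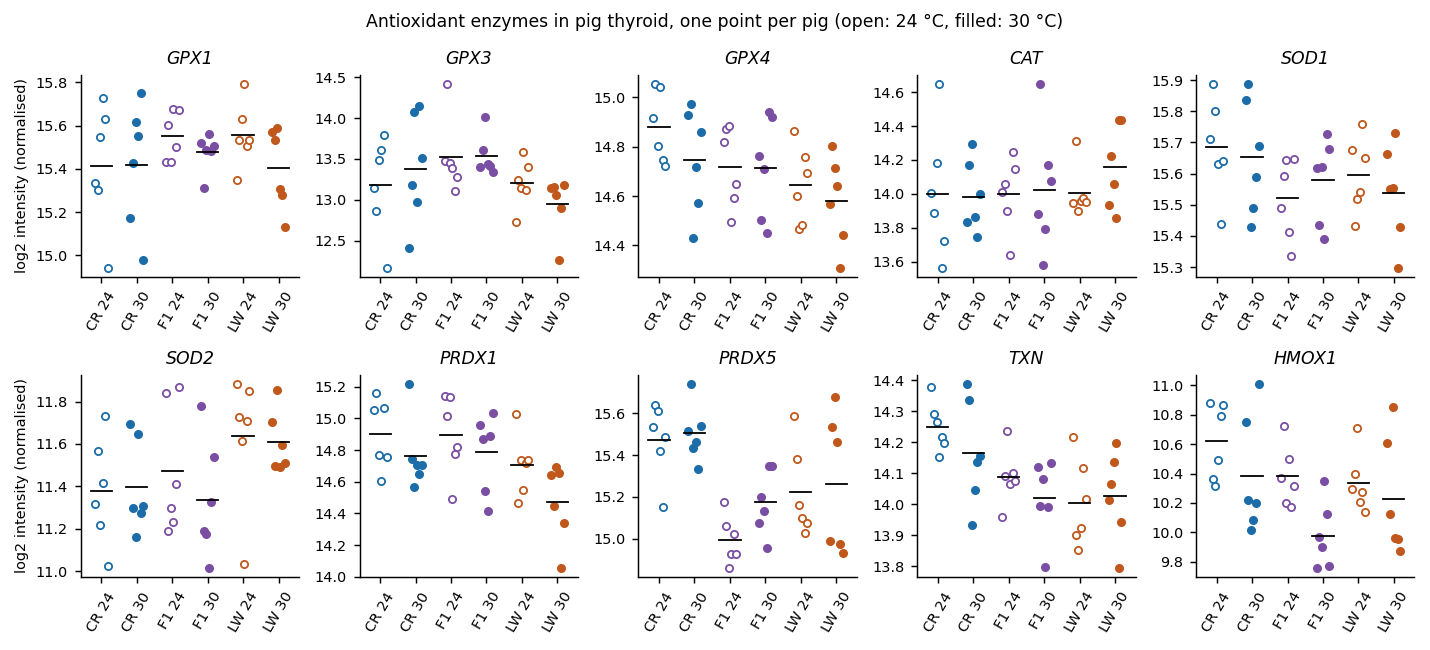
Normalised log2 intensity of the brightest probe of each antioxidant enzyme (vertical axes, a separate range for each gene) in the 6 groups of 6 pigs (horizontal axes). Each point is 1 pig, open at 24 °C and filled at 30 °C, and the line is the group mean. PRDX5 is lowest in the F1 pigs at 24 °C, where all 6 values lie below 15.18, and the temperature groups of a breed overlap for each gene.

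HMOX1 came nearest to a response. At 24 °C its level over all breeds had a lowest value of 10.14, a median of 10.37 and a highest value of 10.88, and at 30 °C these were 9.76, 10.103 and 11.01. Of the 18 hot pigs 11 lay below every pig kept at 24 °C, and 1 lay above all of them. The difference was -0.25 ± 0.09 (log2, SE), with an unadjusted p of 0.0123 and an adjusted p of 0.297, so it did not pass the test across all probes. All 4 HMOX1 probes were lower at 30 °C, by estimates of -0.12 to -0.25. Within breeds the difference was -0.24 ± 0.16 in CR, -0.40 ± 0.16 in F1 and -0.11 ± 0.16 in LW, with adjusted p of 0.977, 0.357 and 1. In F1 the 4 probes gave -0.30 to -0.44, with a lowest adjusted p of 0.232, so none was called (0.381% of all named genes were). On A_72_P622079 and O13963 all 6 hot F1 pigs lay below all 6 F1 pigs at 24 °C, at 6.41 to 6.82 against 6.89 to 7.19 and at 6.41 to 6.67 against 6.73 to 6.95. On the brighter probes A_72_P078091 and A_72_P689842 these F1 groups overlapped. How many of all probes separate these groups is not reported here, and 4918 of 46222 had an unadjusted limma p under 0.05 between them. In CR and LW the probe A_72_P622079 gave 0.05 ± 0.15 and 0.03 ± 0.15. The interaction of breed and temperature on that probe had an unadjusted p of 0.0426 and an adjusted p of 1, by limma's moderated F test, and was not called.

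PRDX1, an abundant cytosolic peroxiredoxin, was the other gene with an unadjusted p under 0.05. Its median was 14.77 at 24 °C, with values from 14.47 to 15.16, and 14.68 at 30 °C, with values from 14.06 to 15.22. The difference was -0.16 ± 0.07 (log2, SE; adjusted p 0.467), and its second probe, which shares 45 bases with the first, gave -0.19 ± 0.07 (adjusted p 0.242). Hot pigs lay below the 24 °C median in 13 of 18 cases, and the ranges overlapped. For the other members the differences were 0.08 ± 0.07 for PRDX5, -0.08 ± 0.07 for GPX1, -0.07 ± 0.06 for GPX4, 0.05 ± 0.09 for CAT, -0.05 ± 0.08 for SOD2, -0.04 ± 0.04 for TXN, -0.01 ± 0.15 for GPX3 and -0.01 ± 0.05 for SOD1, all on the log2 scale with SE.

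Within single breeds 0 of 10 genes were called in CR (0.491% of all named genes were), 0 in F1 (0.381%) and 0 in LW (0%). With an unadjusted p under 0.05 there was 1 gene, HMOX1 in F1. The interaction of breed and temperature, by a moderated F test, called 0 of 10 genes and 0% of all named genes, and 0 of 10 had an unadjusted p under 0.05. The largest estimates of a hot period effect within a breed were those of HMOX1 in F1 and, in the other direction, 0.20 ± 0.26 for GPX3 in CR.

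The second set of comparisons asked whether the breeds differ. Between LW and CR, 2 of 10 genes were called, PRDX5 and TXN, both lower in LW, against 13.2% of all named genes. At the level of probes 10 of 54 were called, against 12.9% of all probes, and 9 of the 10 were lower in LW. Over all probes 2649 of 5965 called ones were lower in LW. The 10 probes belonged to TXN (4), GPX4 (3), SOD2 (2) and PRDX5 (1), and some share sequence, so they are not 10 separate results. Over the 10 genes the median difference was -0.20 and 7 of 10 were lower in LW, beside a median of 0.00 and 49.7% lower over all named genes. Between F1 and CR, 1 of 10 genes was called, PRDX5, lower in F1, against 3.21% of all named genes, and 4 of 54 probes were called, all lower in F1, against 3.38% of all probes. These were 3 probes of PRDX5 and 1 of HMOX1, and over all probes 773 of 1561 called ones were lower in F1. Between F1 and LW 0 of 10 genes were called, against 1.85%, with 3 at an unadjusted p under 0.05, and 1 of 54 probes was, against 1.99% of all probes. Against the mean of both parental breeds 0 of 10 F1 values were called, against 0.34%, with 3 at an unadjusted p under 0.05. In LW against CR 5 of 10 genes had an unadjusted p under 0.05, beside 12107 of 46222 probes. In F1 against CR 3 of 10 did, beside 7957 of 46222 probes. The probe counts were 6187 of 46222 for F1 against LW and 4786 of 46222 against the mean of the parental breeds. The comparisons with CR share the same 12 CR pigs.

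**Figure D2:**
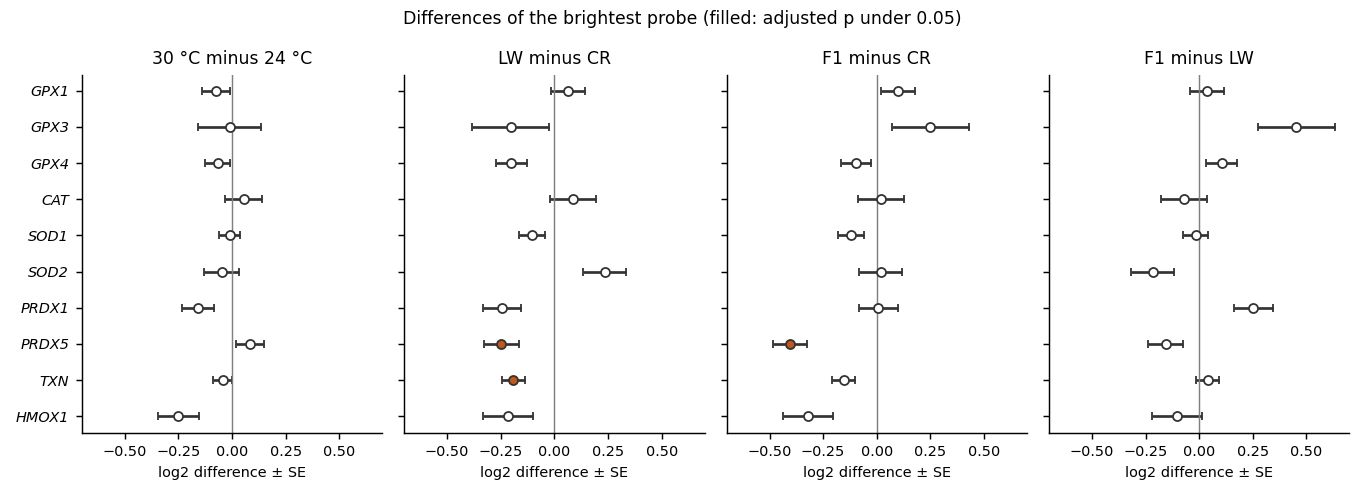
Differences on the log2 scale (horizontal axes) with standard errors for the brightest probe of each enzyme (vertical axis), in 4 panels for 30 minus 24 °C, LW minus CR, F1 minus CR and F1 minus LW. Filled points have an adjusted p under 0.05, and these are PRDX5 and TXN for LW minus CR and PRDX5 for F1 minus CR, all to the left of 0.

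PRDX5, a peroxiredoxin of mitochondria, peroxisomes and cytosol, showed the clearest breed difference. In the 12 CR pigs its log2 level had a lowest value of 15.15, a median of 15.50 and a highest value of 15.74. In the 12 F1 pigs these were 14.86, 15.07 and 15.35, and in the 12 LW pigs 14.93, 15.13 and 15.68. All 12 F1 pigs lay below the CR median and 8 lay below every CR pig, while 10 of 12 CR pigs lay above every F1 pig. LW spread over the range of both other breeds, with 6 pigs below every CR pig and 3 above the CR median.

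The difference of F1 from CR was -0.40 ± 0.08 (log2, SE), a ratio of 0.756, with an adjusted p of 0.00316. The other probe sequence, spotted under 2 names, gave -0.39 ± 0.09 each time, with adjusted p of 0.0123 and 0.00947. LW differed from CR by -0.25 ± 0.08 (adjusted p 0.0354) on the brightest probe, and by -0.23 ± 0.09 and -0.21 ± 0.09 on the others, which were not called (adjusted p 0.0939 and 0.121). The LW call was also lost in turn without each of 12 single pigs (CR_24 replicates 1, 2, 3 and 6, CR_30 replicate 2, LW_24 replicates 3, 4, 5 and 6 and LW_30 replicates 1, 5 and 6), with an adjusted p of up to 0.0697. F1 against LW gave -0.16 ± 0.08 (adjusted p 0.402), and F1 against the mean of both parents -0.28 ± 0.07 (adjusted p 0.0575), so PRDX5 in the cross was lower than in CR, whereas its distance from LW and from the middle of the parents did not pass the test.

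Within slides, F1 was lower than CR in PRDX5 on 5 of 5 slides, by differences of -0.49 to -0.19, and LW was lower than CR on 5 of 5 slides, by -0.49 to -0.06. Such slide differences, here and below, rest on few pigs. Slide 5 held 1 F1, 1 CR and 2 LW pigs, and the other slides 2 or 3 pigs of each breed. In the F1 pigs the level was 14.99 ± 0.11 at 24 °C and 15.18 ± 0.15 at 30 °C (log2, SD, n = 6 each), with a difference of 0.18 ± 0.12 and an adjusted p of 0.602.

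TXN, the small protein that hands electrons to the peroxiredoxins, was lower in LW than in CR by 0.19 on the log2 scale. CR pigs ranged from 13.93 through a median of 14.21 to 14.39, F1 pigs from 13.80 through 14.08 to 14.24, and LW pigs from 13.80 through 14.02 to 14.22. Below the CR median lay 11 of 12 LW pigs, and 6 of 12 CR pigs lay above every LW pig. The difference was -0.19 ± 0.05 (SE; adjusted p 0.0136), a ratio of 0.875, and 3 further probes, 2 of them of identical sequence, gave -0.19, -0.19 and -0.23, each called. The fifth probe, O7867, which is printed above as the reverse complement of the first, ran between 6.80 and 7.32 and gave -0.06 ± 0.06 (adjusted p 0.635). LW was below CR on 5 of 5 slides, by -0.24 to -0.09. F1 against CR gave -0.15 ± 0.05 (adjusted p 0.108), with 11 of 12 F1 pigs below the CR median, and F1 against LW gave 0.04 ± 0.05 (adjusted p 0.851).

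PRDX1 had a difference of like size that missed the threshold. CR pigs ranged from 14.57 through a median of 14.75 to 15.22, F1 pigs from 14.42 through 14.88 to 15.14, and LW pigs from 14.06 through 14.65 to 15.03. LW against CR gave -0.24 ± 0.09 (adjusted p 0.0696) on the brightest probe and -0.24 ± 0.08 (adjusted p 0.0527) on the overlapping one, and 5 of 12 LW pigs lay below every CR pig. F1 lay near CR, with a difference of 0.01 ± 0.09, and above LW by 0.25 ± 0.09 (adjusted p 0.161). With slide as a fixed block the LW difference was called (adjusted p 0.0357).

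Among the glutathione peroxidases, GPX4, the selenoenzyme that reduces lipid hydroperoxides in membranes, was lower in LW than in CR on each of its 5 probes. CR pigs ranged from 14.43 through 14.83 to 15.06, F1 pigs from 14.45 through 14.73 to 14.94, and LW pigs from 14.31 through 14.62 to 14.86. Below the CR median were 11 of 12 LW pigs. The brightest probe gave -0.20 ± 0.07 (adjusted p 0.0569) and was not called, whereas A_72_P232212, A_72_P589411 and O12144 were, with differences of -0.19, -0.19 and -0.18 and adjusted p of 0.0334, 0.0312 and 0.0446. The sequence shown above is spotted a second time as A_72_P646221, where it gave -0.15 ± 0.06 (adjusted p 0.0789), so the same 60 bases fell on both sides of the threshold, and on A_72_P232212 the call was also lost without any 1 of CR_24 replicates 1 and 2, CR_30 replicates 1 and 2, LW_24 replicates 2, 3, 4 and 6 or LW_30 replicates 5 and 6 (adjusted p 0.0507 to 0.0641). The brightest probe was called with slide as a fixed block (adjusted p 0.0193). LW was below CR on 5 of 5 slides, by -0.25 to -0.11, and F1 lay between them, at -0.10 ± 0.07 from CR.

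GPX1, the cytosolic selenoenzyme that reduces hydrogen peroxide, gave 0.06 ± 0.08 for LW against CR and 0.10 ± 0.08 for F1 against CR on its brightest probe, neither called (adjusted p 0.675 and 0.569). Its probes were higher in LW in 6 of 6 cases, from 0.06 to 0.50, and the lowest adjusted p among them was 0.0623. The spread was widest in CR, where the SD of the brightest probe over 12 pigs was 0.27, compared with 0.10 in F1 and 0.18 in LW. On the dimmer probe A_72_P564112 the SDs were 0.62 in CR, 0.29 in F1 and 0.43 in LW.

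By the brightest probes, GPX3, the secreted glutathione peroxidase, varied most among pigs of a breed. CR pigs ranged from 12.17 through a median of 13.33 to 14.15, F1 pigs from 13.10 through 13.43 to 14.42, and LW pigs from 12.26 through 13.14 to 13.59. Above the CR median lay 10 of 12 F1 pigs, and above the LW median 11 of 12. F1 against LW gave 0.45 ± 0.18 (adjusted p 0.222), F1 against CR 0.25 ± 0.18 (adjusted p 0.519) and LW against CR -0.20 ± 0.18 (adjusted p 0.524), so none of the breed differences passed the test.

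The cytosolic dismutase SOD1 had a narrow range, from 15.30 to 15.89 over all pigs, and gave -0.10 ± 0.06 for LW and -0.12 ± 0.06 for F1 against CR (adjusted p 0.29 and 0.304). The mitochondrial dismutase SOD2 is different, because its probes did not give 1 answer. The brightest probe, A_72_P341278, had a median of 11.66 in LW against 11.31 in each of the other breeds, with 11 of 12 LW pigs above the CR median, and a difference of 0.23 ± 0.10 for LW against CR (adjusted p 0.123). Without LW_24 replicate 4, the lowest LW pig, the difference was 0.29 and was called (adjusted p 0.0336). The same sequence spotted as A_72_P503136 gave 0.27 ± 0.10 (adjusted p 0.0722). A_72_P648498 went the other way: its medians were 11.39 in CR, 11.40 in F1 and 11.16 in LW, all 12 LW pigs lay below the CR median, and the difference of -0.28 ± 0.08 was called (adjusted p 0.0117). Of the 8 tested SOD2 probes 3 were higher and 5 lower in LW.

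The third pattern was that of A_72_P444413, whose values fell into separate bands. CR pigs ranged from 6.34 through a median of 7.28 to 9.33, F1 pigs from 6.45 through 7.63 to 9.24, and LW pigs from 7.30 through 9.23 to 9.90. No pig lay between 7.84 and 8.88, a gap of 1.04 where the next largest step between neighbouring pigs was 0.40. Above the gap were 11 of 12 LW pigs, 3 of 12 CR pigs and 3 of 12 F1 pigs. LW against CR gave 1.70 ± 0.36 (log2, SE; adjusted p 0.00151) and F1 against LW -1.54 ± 0.36 (adjusted p 0.0162), while F1 against CR gave 0.15 ± 0.36 (adjusted p 0.879). The LW pig below the gap, at 7.30, was LW_24 replicate 4, which was also the lowest LW pig on A_72_P341278, at 11.03. The array's annotation gives 1 alveolar macrophage cDNA clone for both A_72_P341278 and A_72_P648498, whose breed differences had opposite signs, and an Ensembl transcript for A_72_P444413. Which transcripts these probes read was not tested.

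**Figure D3:**
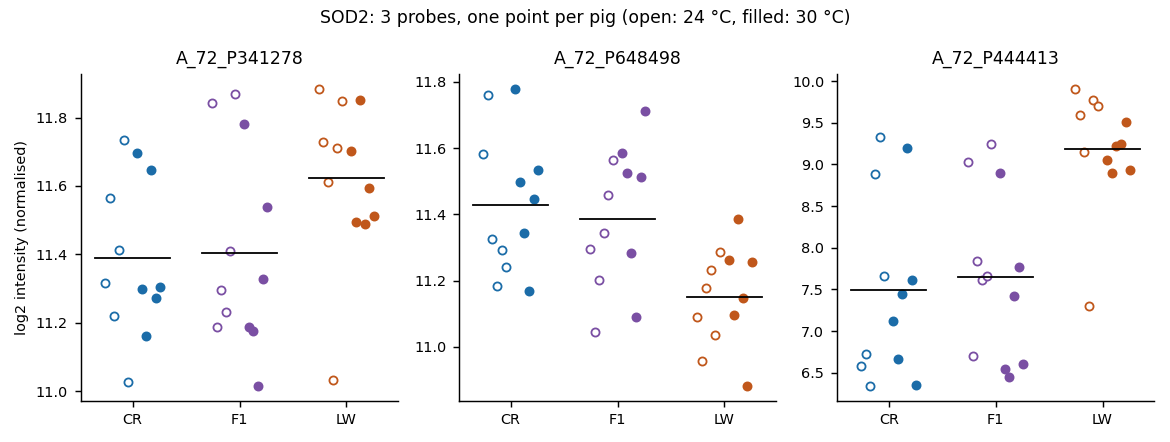
Normalised log2 intensity of 3 SOD2 probes (vertical axes, a separate range for each probe) in the pigs of each breed (horizontal axes). Each point is 1 pig, open at 24 °C and filled at 30 °C, and the line is the mean of 12 pigs. LW is highest on A_72_P341278 and A_72_P444413 and lowest on A_72_P648498, and on A_72_P444413 no pig lies between 7.84 and 8.88.

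Catalase, the peroxisomal enzyme, gave 0.09 ± 0.11 for LW and 0.02 ± 0.11 for F1 against CR on the log2 scale, with similar medians, 13.95 for CR, 14.03 for F1 and 13.97 for LW. All 10 of its probes were higher in LW, by 0.02 to 0.19, and none was called. HMOX1 was lower in F1 than in CR by an estimate of -0.32 ± 0.12 on its brightest probe (adjusted p 0.123), and another of its probes, A_72_P689842, was called at -0.34 ± 0.09 (adjusted p 0.0318). That call was lost in turn without each of CR_24 replicate 1, CR_30 replicates 1 and 6, F1_24 replicates 5 and 6 and F1_30 replicate 2 (adjusted p up to 0.0634). Its medians on the brightest probe were 10.43 in CR, 10.19 in F1 and 10.24 in LW, and 4 of 12 F1 pigs lay below every CR pig. LW against CR gave -0.22 ± 0.12 (adjusted p 0.237).

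Other genes of the same chemistry were looked up from lists. Of 45 tested antioxidant and redox genes, 0 were called between temperatures, against 1.21% of all named genes, with 5 at an unadjusted p under 0.05 and a median difference of 0.00. Between LW and CR 8 of 45 were called, against 13.2% of all named genes. Of these, 6 were higher and 2 lower in LW, with a median of -0.05 over the list. The 6 with the smallest adjusted p were PRDX6, the 1-cysteine peroxiredoxin (0.41 ± 0.09, adjusted p 0.00245), MSRB2, a mitochondrial methionine sulfoxide reductase (0.34 ± 0.09), BLVRB, a biliverdin reductase (-0.48 ± 0.13), the ferritin light chain FTL (-0.20 ± 0.06), the thioredoxin-binding protein TXNIP (0.65 ± 0.19) and NFE2L2, the transcription factor of the antioxidant response (0.23 ± 0.07). Between F1 and CR 2 of 45 were called, against 3.21% of all named genes. They were PRDX6 (0.40 ± 0.09) and MSRB2 (0.32 ± 0.09), both higher in F1. PRDX6 was thus higher in LW and in F1 than in CR, where the estimates of PRDX5 were lower.

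Among 8 tested genes that generate hydrogen peroxide, 0 were called between temperatures, with 0 at an unadjusted p under 0.05. Of 6 tested genes of selenoprotein synthesis, on which the glutathione peroxidases depend, 0 were called between temperatures, with 1 at an unadjusted p under 0.05, while SEPHS1, a selenophosphate synthetase homologue, was higher than in CR in both LW (0.30 ± 0.07, adjusted p 0.00317) and F1 (0.25 ± 0.07, adjusted p 0.0313).

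In bulk tissue, fewer cells of a type and less RNA per cell cannot be told apart. Calls between breeds were made in 4 of the lists of other cell types. Of all named genes 13.2% were called in LW against CR, 3.21% in F1 against CR and 1.85% in F1 against LW. Of 7 tested adipocyte markers 5 were lower in LW than in CR, by up to -1.36 for CIDEA, and their mean log2 level ran from 9.75 to 11.17 in CR, 10.104 to 11.38 in F1 and 9.32 to 10.46 in LW. Of 8 endothelial markers 4 were higher in LW, led by KDR (0.73 ± 0.10), with mean levels of 11.72 to 12.12 in CR, 11.84 to 12.20 in F1 and 11.97 to 12.38 in LW. Of 7 erythroid markers 1 was lower in LW than in CR, HEMGN (-0.27 ± 0.07, adjusted p 0.00708), and of 8 skeletal muscle markers 1 was higher, ACTA1 (0.22 ± 0.06, adjusted p 0.0147). Between F1 and CR, the comparison in which PRDX5 differed most, KDR was higher in F1 (0.51 ± 0.10, adjusted p 0.00256), HEMGN was lower (-0.25 ± 0.07, adjusted p 0.0366), and 0 of 7 adipocyte markers were called, with 0 at an unadjusted p under 0.05. Between F1 and LW, 4 of 7 adipocyte markers were higher in F1, by up to 1.31 for CIDEA. Of 8 endothelial markers 1, TIE1, was lower in F1 than in LW (-0.33 ± 0.07, adjusted p 0.00782). Over pigs within groups, the adipocyte mean correlated with PRDX5 at r = 0.11 (adjusted permutation p 0.712) and with TXN at r = 0.12 (adjusted permutation p 0.712), and the endothelial mean at 0.27 and -0.09 (adjusted permutation p 0.512 and 0.747). The part of these cells in the breed differences was not tested. With temperature, HBB, a hemoglobin chain, was lower in the hot pigs (-1.004 ± 0.19), and it was the only 1 of 7 tested erythroid markers called. Of 7 adipocyte markers 0 were called with temperature, with 4 at an unadjusted p under 0.05 and a median of -0.33, and of 7 fibroblast markers 0, with 2 at an unadjusted p under 0.05 and a median of -0.28. The part of these cells in the temperature differences was not tested.

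How the enzymes varied among pigs beyond breed and temperature was examined after the mean of each group was subtracted. Of 45 pairs, 9 had an adjusted permutation p under 0.05, all with a positive r, and the median r over all pairs was 0.05. The share of such pairs among all named genes is not reported here. Of the 9 pairs 7 joined GPX4, SOD1, TXN, PRDX1 and PRDX5 to each other. Each of these enzymes had a higher r with named genes outside the members, given below, than with any member. GPX4 and SOD1 had r = 0.76 (Spearman rho 0.73) and SOD1 and TXN r = 0.75 (rho 0.75), with a permutation p of 1e-05 each, the smallest that 100000 resamples can give, and an adjusted p of 0.000225. Both had a positive r in 6 of 6 groups, and r stayed at 0.70 and 0.75 without the 2 pigs farthest from the median of the first gene.

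The other pairs of these 5 enzymes were GPX4 with TXN (r = 0.69, rho 0.68), PRDX1 with TXN (0.66, rho 0.61), GPX4 with PRDX1 (0.64, rho 0.62), GPX4 with PRDX5 (0.59, rho 0.60) and SOD1 with PRDX1 (0.57, rho 0.57), with adjusted permutation p from 0.0006 to 0.00527 and r from 0.57 to 0.62 without the 2 farthest pigs. With slide subtracted as well, these 7 pairs kept an r of 0.47 to 0.70. SOD2 with PRDX1 had r = 0.52 (rho 0.52, adjusted permutation p 0.0143, 0.51 without the 2 farthest pigs), which was 0.32 with slide subtracted (adjusted permutation p 0.188). With slide subtracted a negative pair joined, GPX3 with PRDX5, at r = -0.51 (adjusted permutation p 0.00378), from -0.29 without that step (adjusted permutation p 0.236). GPX1 with GPX3 had r = 0.58 (adjusted permutation p 0.0211), with a Spearman rho of 0.48 whose adjusted p was 0.051. Catalase and HMOX1 were in none of the 9 pairs. Since littermates are not marked, pigs may be less independent than these p-values assume.

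**Figure D4:**
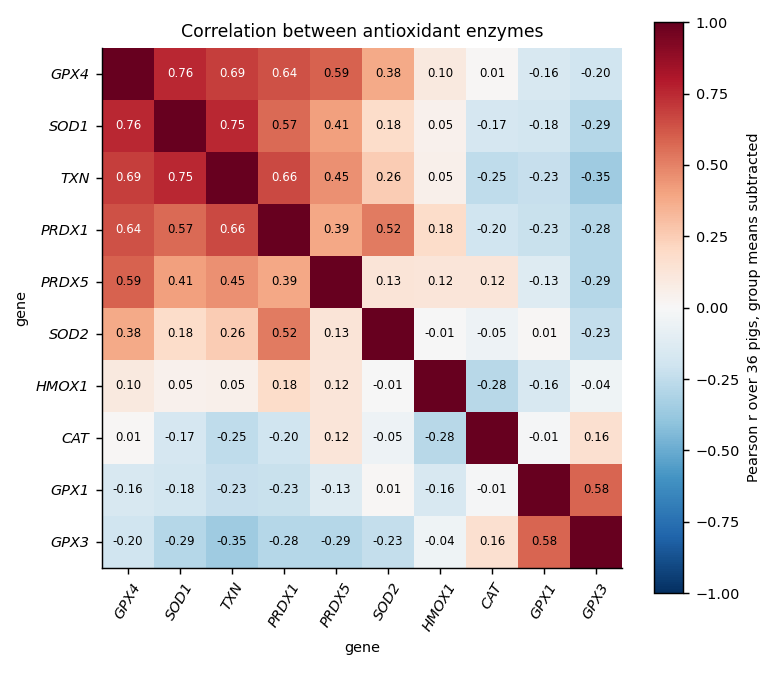
Pearson r between the brightest probes of the 10 enzymes over 36 pigs, after the mean of each of the 6 groups was subtracted (colour scale from -1 to 1, values printed in the cells). GPX4, SOD1, TXN, PRDX1 and PRDX5 form the red block at the upper left, where r runs from 0.39 to 0.76, and GPX1 and GPX3 pair at the lower right with 0.58.

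The named genes most like each member over the 36 pigs, of 9975 compared, are given by the same r as a description. They were NDUFA3 and POLR2L for GPX4 (0.84 each), GAPDH and PPIB for SOD1 (0.84 and 0.82), DDT and COX6A1 for TXN (0.85 and 0.84), PPIA and BUB3 for PRDX1 (0.78 and 0.77), and EMP3 and PQLC3 for PRDX5 (0.76 and 0.74). SOD2 was most like ST7 and KCNIP1 (0.73 and 0.72), CAT most like HIRIP3 and CD9 (0.71 and 0.70), and HMOX1 most like SIT1 and ICAM3 (0.68 and 0.63). GPX1 was most like GPX2, another glutathione peroxidase (0.73), and SULT4A1 (0.69). GPX3 had the closest matches of all members, EEF1A2 (0.94) and CRYBA2 (0.93).

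GPX3 also moved with the markers of C cells, the calcitonin-producing cells that lie between the follicles. The 4 tested C cell markers were all well above background in every pig, among them CALCB between 11.73 and 15.61, SCG2 between 10.095 and 13.64 and CHGA between 15.53 and 16.04 on the log2 scale. Over the pigs, with group means subtracted, their mean level and GPX3 had r = 0.90 (rho 0.83), with a permutation p of 1e-05 and 0.0009 after adjustment over the 90 relations of 10 members with 9 marker lists. The relation was positive in 6 of 6 groups and r was 0.91 without the 2 pigs farthest from the median of the markers. By gene, r was 0.91 for SCG2, 0.83 for CALCB and 0.17 for CHGA. The C cell mean ran from 11.11 to 13.00 in CR, 11.91 to 12.75 in F1 and 11.25 to 12.23 in LW, so it was widest in the breed where GPX3 was, and 0 of 4 markers were called between breeds, with 2 at an unadjusted p under 0.05 in F1 against CR and 2 in F1 against LW. The part of C cells in the GPX3 level of a gland was not tested.

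**Figure D5:**
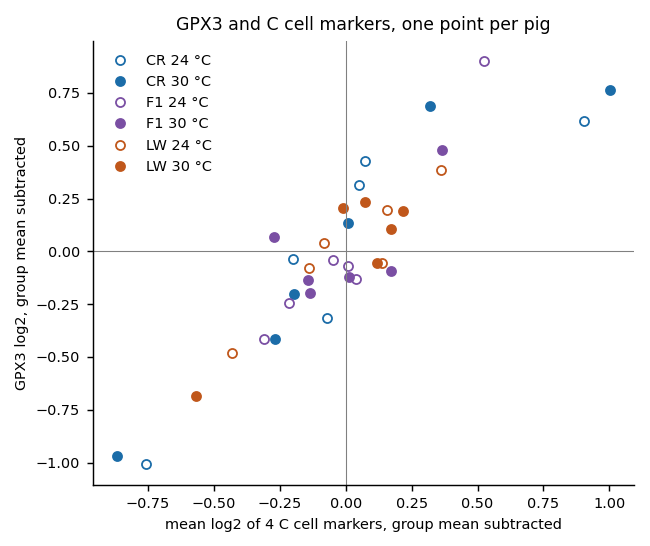
GPX3 (vertical axis, log2) against the mean log2 level of 4 C cell markers (horizontal axis), each with the mean of its group subtracted, for 36 pigs. Colours are breeds, open points 24 °C and filled points 30 °C. The points lie along 1 line (r = 0.90), with CR pigs at both ends.

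Another 3 of the 90 relations passed the adjustment. GPX1 correlated with the same C cell mean at r = 0.63 (rho 0.59, adjusted permutation p 0.0488, 0.55 without the 2 farthest pigs). HMOX1 correlated with the mean of 9 tested lymphocyte markers at r = 0.61 (rho 0.63, adjusted permutation p 0.0306, 0.57 without the 2 farthest pigs), and with that of 10 macrophage markers at r = 0.58 (rho 0.53, adjusted permutation p 0.0518), which did not pass. GPX4 correlated with the mean of 8 tested skeletal muscle markers at r = 0.62 (rho 0.63, adjusted permutation p 0.0027, 0.63 without the 2 farthest pigs). Of these 8 markers 7 were well above background on every array, and some were dim, such as MYH1 between 5.61 and 6.10 on the log2 scale. The part of C cells, immune cells and muscle in these relations was not tested. Macrophage and lymphocyte markers were not called between temperatures (0 of 10, with 1 at an unadjusted p under 0.05, and 0 of 9, with 0). Their median differences were -0.17 and -0.01. Within breeds the lymphocyte median was 0.18 in CR, -0.05 in F1 and -0.26 in LW, and the macrophage median 0.02, -0.10 and -0.28. None of these markers was called within a breed or for the interaction. For the interaction 4 of 9 lymphocyte markers had an unadjusted p under 0.05, beside 2157 of 46222 probes.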

How the data were processed

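The 36 scanner files hold, per spot, intensity values that the authors obtained with Agilent Feature Extraction 10.10.1.1; the deposited series table holds the authors' quantile-normalised log2 values. The members and gene lists were chosen with earlier results of these data known. From the scanner files, median pixel intensities without background subtraction were used, 106 non-uniform spots were set aside, 60306 non-control spots were quantile-normalised, and log2 values were averaged by probe. A probe was tested if well above background on at least 5 of 6 arrays of a group, which left 46222. limma 3.58.1 in R 4.3.3 fitted breed plus temperature, or the 6 group means for effects within breeds and the interaction, with Benjamini-Hochberg adjustment over all tested probes and a threshold of 0.05. Pen, day of slaughter, sire and dam are not in the labels and could not be fitted. Correlations were tested by permuting pigs within groups (100000 resamples, 2-sided). The models were tested on simulated data. The 10 members are all described, with the 6 called genes of smallest adjusted p of each other list and the 2 named genes most like each member. Promoter and protein sequences and genome positions were not used here. Single values of some listed genes are not reported here. Alternatives were another background correction, scaling by the 75th percentile, the deposited values, other filters, slide or position as a block, the mean of a gene's probes and leaving out single pigs. The number of arrays limits the precision.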

Additional observations from a re-analysis of the deposited data

Results flagged for a closer look

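In 60 sets of 6 pigs (10 genes in 6 groups) the highest or lowest pig was set against its neighbour by Dixon's test, which chance passes with a probability of about 0.05 a set, and 6 sets passed. GPX3 did so with a high value of 14.42 in F1_24 replicate 2 (nearest other pig 13.48) and a low value of 12.26 in LW_30 replicate 4 (nearest other pig 12.89). GPX1 was low in F1_30 replicate 2, at 15.31, with the nearest other pig at 15.48. CAT was high in LW_24 replicate 2, at 14.31, where the other 5 pigs lay between 13.90 and 13.97. SOD2 was low in LW_24 replicate 4, at 11.03, with the nearest other pig at 11.61, the pig that is also below the gap of the probe A_72_P444413. PRDX1 was high in CR_30 replicate 1, at 15.22, with the nearest other pig at 14.74.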

How the results depend on the processing

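TXN in LW against CR and PRDX5 in F1 against CR kept their calls and direction under every alternative tried. The number of members called in LW against CR was 4 with slide as a fixed or as a random block (GPX4 and PRDX1 joined), 1 with position on the slide as a block, and 1 to 4 when single pigs were left out. It was 4 without CR_30 replicate 3 and F1_24 replicate 4, an alternative chosen after seeing the data. On the breed scale the first is the CR pig nearest to another breed (-0.46), and the second lay at -0.03. The PRDX5 call in that comparison was lost with position as a block (adjusted p 0.0762), with the mean of its probes (0.0672) and without any 1 of CR_24 replicates 1, 2, 3 and 6, CR_30 replicate 2, LW_24 replicates 3, 4, 5 and 6 or LW_30 replicates 1, 5 and 6 (adjusted p up to 0.0697). GPX4 was called without CR_30 replicate 3 or 5, LW_24 replicate 1 or LW_30 replicate 2, PRDX1 without CR_24 replicate 4 or LW_24 replicate 1, and SOD2 without LW_24 replicate 4 (0.29, adjusted p 0.0336). In F1 against CR 1 to 2 members were called when single pigs were left out, TXN joining without CR_30 replicate 3 (adjusted p 0.0477). Against the mean of both parents 1 member, PRDX5, was called with slide as a fixed or random block, and 0 to 1 when single pigs were left out (1 without any of CR_24 replicate 5, CR_30 replicate 5, F1_30 replicates 5 and 6 or LW_30 replicates 1, 5 and 6). The HMOX1 probe A_72_P689842 lost its call in F1 against CR with position as a block (adjusted p 0.0788). Uncalled values near 0 changed sign: CAT (-0.0417) and SOD2 (-0.0014) in F1 against CR and the heat difference of HMOX1 within LW (0.0015) with position as a block, and PRDX1 in F1 against CR with the processed signal (-0.0141) and the mean of its probes (-0.00997). With single pigs left out, GPX3 (-0.0810 to 0.0442) and SOD1 (-0.0251 to 0.00598) did so between temperatures, and CAT (-0.0377 to 0.0836), SOD2 (-0.0240 to 0.0514) and PRDX1 (-0.0219 to 0.0502) between F1 and CR. Of 2434 alternative values 2330 kept their direction and side of the threshold, and no called value changed sign. Counts of all called probes moved by over 1.5 times for the hot period within F1 (177, but 18 with position as a block, 271 without both pigs named above and 68 to 272 with single pigs left out, lowest without F1_24 replicate 3 and highest without F1_24 replicate 4, with F1_24 replicate 2 and F1_30 replicates 3 and 6 also lowering it), within LW (0, but up to 16 with single pigs left out, above 0 without LW_24 replicate 1, LW_30 replicate 3 or F1_30 replicates 1 or 5) and for F1 against the mean of both parents (203, but 315 with slide as a random block). With the mean of the probes of a gene 9986 genes were tested in place of 46222 probes, and the calls were 132 for the hot period, 54 within CR, 51 within F1, 1435 for LW against CR, 354 for F1 against CR, 198 for F1 against LW and 31 for F1 against the mean of both parents. For members, heat calls stayed at 0 throughout. Correlated pairs numbered 13 with the processed signal, all positive, and 9 with slide subtracted, of which 8 were positive: SOD2 with PRDX1 was lost and the negative pair GPX3 with PRDX5 was gained. The causes were not tested. No paired analysis was possible because the labels carry neither litters nor replicate numbers. The replicate numbers used here follow the order of the samples within a group and pair no pigs.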
